A study of Mus musculus with 126 samples.

Results

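The Peg10 and Sgce imprinted domain of the mouse was described here through 5 genes of chromosome 6: Peg10, Sgce, Casd1, Ppp1r9a and Asb4. They were picked by name from a table of 23420 genes because Peg10 had far more reads after TSA in both genotypes of the study, so the TSA differences of these genes are given as descriptions without a test. The cells were mouse embryonic stem cells, either J1 wild type cells or J1 cells with the genotype Dnmt1-/-, Dnmt3a-/-, Dnmt3b-/- (triple knockout, TKO), which lack the enzymes that place and copy DNA methylation. Both genotypes received TSA (trichostatin A, an inhibitor of histone deacetylases) at a labelled 5 ng/µl, or 0.0033% DMSO as the solvent control, for 36 h. All cells grew on gelatin in serum with leukaemia inhibitory factor. Each of the 4 groups, which are wild type with DMSO or TSA and TKO with DMSO or TSA, has 2 RNA-seq libraries, which the series text calls biological replicates. Whether the TKO line is a single clone is not given in the sources used here. The series holds 126 samples, and the 118 that are not RNA-seq were not analysed here.

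An imprinted gene is read mainly from the chromosome copy of 1 parent, and the choice is held by DNA methylation that differs between the parental copies at a control region. In this domain Peg10 and Sgce start close together on opposite strands and share a control region that is methylated on the maternal copy, so both are read from the paternal copy. Peg10 descends from a retrotransposon and is needed for the mouse placenta, while genes farther out, such as Ppp1r9a and Asb4, are known for maternal expression in some tissues. Counts per gene do not separate the parental copies, so nothing below says which copy gave the reads.

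In mm10 coordinates of the deposited table, Casd1 lies on the plus strand of chromosome 6 from 4601066 to 4643381 with 18 exons. Sgce lies on the minus strand from 4674350 to 4747204 with 13 exons. Peg10 follows on the plus strand from 4747306 to 4760516 with 2 exons, so that its start is 102 bases from that of Sgce. Ppp1r9a spans 4903320 to 5165661 on the plus strand with 16 exons, and Asb4 spans 5383386 to 5433021 on the plus strand with 6 exons. From the start of Casd1 to the end of Asb4 the domain measures 832 kb. No exon of the 5 genes overlaps an exon of another gene in the table.

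DNA methylation acts on the pair CG (CpG), so the CpG pairs just ahead of a gene's start can carry it in wild type cells, while TKO cells lack the enzymes that place it. RefSeq promoter sequence of the build GRCm38.p6 matched 3 of the 5 genes. For each, the 250 bases ahead of the start site nearest to that of the deposited table are printed 5′ to 3′ on the gene's strand (plus), with each CpG pair in capitals. They are chr6:4600661-4600910 for Casd1, chr6:4903061-4903310 for Ppp1r9a and chr6:5383136-5383385 for Asb4, all ahead of the first exon.
Casd1: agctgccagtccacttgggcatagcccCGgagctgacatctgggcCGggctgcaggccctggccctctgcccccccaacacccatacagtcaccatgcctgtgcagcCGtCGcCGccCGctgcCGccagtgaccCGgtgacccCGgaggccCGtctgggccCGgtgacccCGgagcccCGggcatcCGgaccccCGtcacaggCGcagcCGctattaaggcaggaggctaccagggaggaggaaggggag
Ppp1r9a: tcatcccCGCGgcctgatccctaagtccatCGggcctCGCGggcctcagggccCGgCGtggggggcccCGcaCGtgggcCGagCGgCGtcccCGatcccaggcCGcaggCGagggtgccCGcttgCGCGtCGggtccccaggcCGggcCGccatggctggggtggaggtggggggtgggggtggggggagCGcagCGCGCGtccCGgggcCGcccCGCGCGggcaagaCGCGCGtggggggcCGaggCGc
Asb4: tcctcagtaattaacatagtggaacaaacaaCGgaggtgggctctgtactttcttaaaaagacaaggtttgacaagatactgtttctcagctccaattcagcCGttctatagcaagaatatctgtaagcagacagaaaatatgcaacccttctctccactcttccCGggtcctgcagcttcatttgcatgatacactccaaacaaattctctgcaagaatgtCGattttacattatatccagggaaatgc
The Ppp1r9a window held 35 CpG pairs and was 81.2% G and C, and 97.0% of the 32851 RefSeq windows of this length had fewer CpG pairs. The Casd1 window held 17 CpG pairs, more than 76.5% of windows, and the Asb4 window held 4, more than 37.8% of windows. The median window had 6 CpG pairs. The letters of 5 factors assayed in the series were searched on both strands: the NRF1 consensus, AAGATGGC for YY1, CCGGAAGT for GABPA, CACGTG for MAX and GGGCGG for SP1, none of which contains another. Casd1 had 1 match to SP1, Ppp1r9a had 1 to SP1 and 1 to MAX, and Asb4 had no match to any of them. Of all windows, 32.7% held the SP1 letters, 6.02% those of MAX, 3.74% those of NRF1, 2.88% those of GABPA and 1.56% those of YY1. A match is a description of these letters and says nothing about binding.

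Total counts were 13280631 to 15542527 per library, so that 3 counts, the limit that a count of 0 allows, correspond to 0.183 to 0.243 normalised CPM (counts scaled to a common library total and between libraries), counting error only. The common biological coefficient of variation was 10.3%. Of the 23420 genes, 15822 had enough reads to be tested, all 5 domain genes among them. Asb4 passed only through the TSA groups: it reached the level the filter asks for, 0.682 CPM, in 1 of 4 DMSO libraries and in 4 of 4 TSA libraries. In the TKO DMSO libraries Dnmt1, Dnmt3a and Dnmt3b were lower than in wild type by log2 fold changes of -1.78, -3.00 and -3.72, and every TKO library was below every wild type library for each. Which exons were deleted was not examined. In each comparison the threshold for a call was an adjusted p of 0.05 in edgeR's quasi-likelihood test, with Benjamini-Hochberg adjustment over the 15822 genes. By this rule 52.8% of genes were called for TSA in wild type, 4266 higher and 4092 lower, and 58.7% for TSA in TKO, 4872 higher and 4412 lower. When only total counts scaled the libraries, these splits were 5809 and 2437 in wild type, and 5904 and 3268 in TKO, and the median gene moved from 0.01 to 0.22 and from 0.04 to 0.19 on the log2 scale.

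Peg10, which encodes a retrotransposon-derived capsid-like protein, was the most abundant gene of the domain in every group. Wild type libraries held 661 and 559 normalised CPM with DMSO and 2193 and 2507 with TSA. TKO libraries held 549 and 574 with DMSO and 3247 and 3711 with TSA. The 4 DMSO libraries thus lay together, every TSA library was above every DMSO library, and both TKO TSA libraries were above both wild type TSA libraries. By raw reads Peg10 was gene number 161 and 219 of the wild type DMSO libraries and number 6 and 4 of the wild type TSA libraries. In TKO it was number 214 and 196 with DMSO, and number 3 and 4 with TSA, when 0.337% and 0.394% of all counts fell on this gene.

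**Figure D1:**
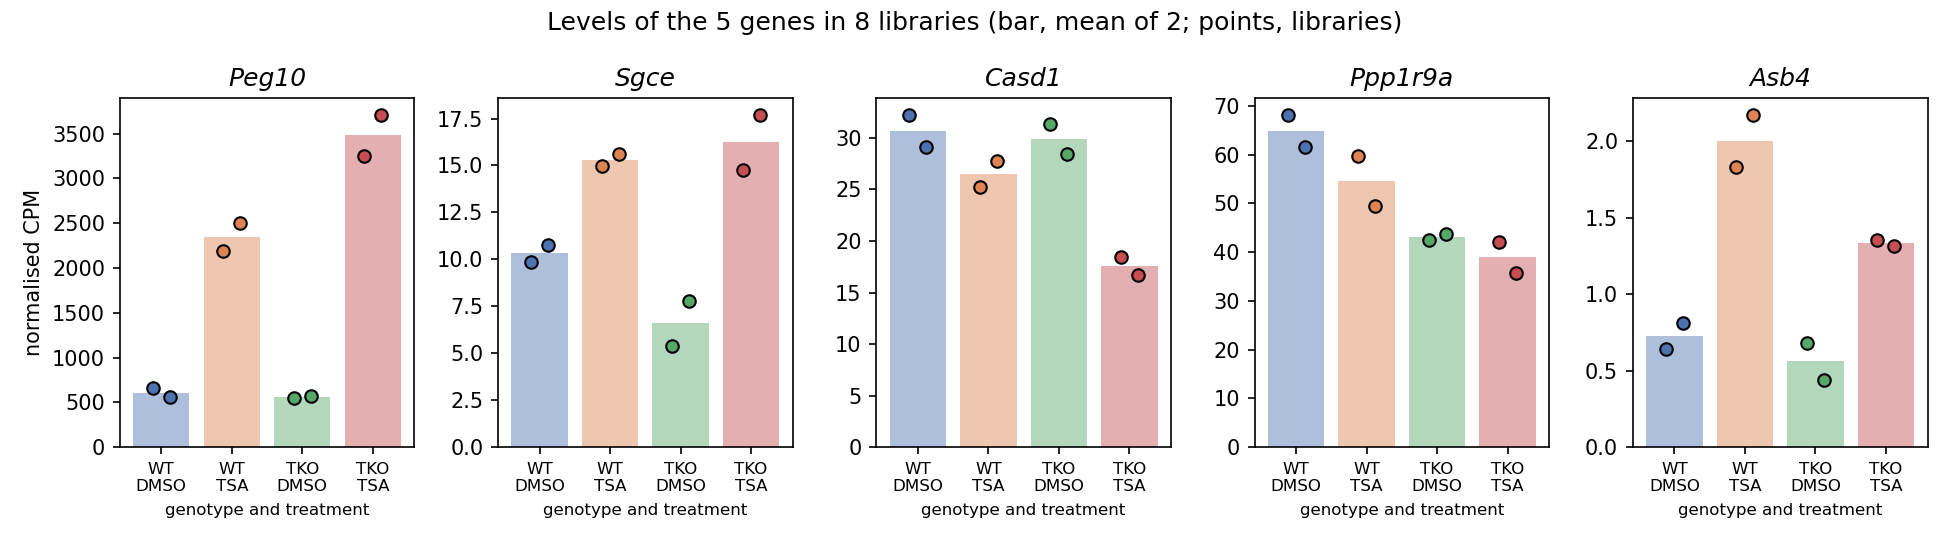
Normalised CPM (y axis, linear, one scale per gene) of the 5 domain genes by genotype and treatment (x axis; WT is wild type). Bars are means of 2 libraries and points are the libraries. Peg10 lies between 549 and 661 CPM in the DMSO libraries and between 2193 and 3711 CPM in the TSA libraries.

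The fitted TSA difference of Peg10 was 1.95 ± 0.12 on the log2 scale (SE, 2 libraries per group), or 3.85-fold, in wild type, and 2.63 ± 0.12, or 6.20-fold, in TKO. These differences chose the gene and carry no test. Of all genes tested, 7.29% were at least 4-fold higher with TSA in wild type and 8.63% in TKO. By the size of its log2 difference Peg10 was number 1226 in wild type and number 804 in TKO among the 15822 genes. Among the 180 other genes that were at least as abundant as Peg10 in wild type DMSO by normalised CPM, 0 had a larger log2 difference with TSA in wild type, and 0 in TKO. These rankings use the difference that chose the gene, so they restate that choice and are no further evidence.

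The genotype alone was not called for Peg10 in DMSO: the log2 difference of TKO from wild type was -0.12 ± 0.11 (95% interval -0.36 to 0.13, adjusted p = 0.498), and the libraries of the 2 groups overlapped. With TSA, Peg10 was higher in TKO by 0.57 ± 0.11, or 1.48-fold (adjusted p = 0.00589), without overlap. Leaving out wild type TSA replicate 1 ended this call (adjusted p = 0.0699). Whether TSA acted differently in the 2 genotypes is the interaction term, the TSA difference in TKO minus that in wild type, which was 0.69 ± 0.16 for Peg10 and was not called (adjusted p = 0.0635). Of the 14 alternatives run, 5 called it, and over all 14 the adjusted p lay between 0.00484, by DESeq2, and 0.217. The other 4 that called it had no filter, a replicate block, or no wild type DMSO replicate 2 or TKO TSA replicate 1.

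Peg10 is known from the placenta, so trophoblast markers are given beside it as levels, without a test. The summed level of 11 trophoblast markers went from 53.8 to 56.6 CPM with DMSO to 185 to 205 with TSA in wild type cells, and from 48.5 to 69.4 to 286 to 292 in TKO cells. Most of it came from Tfap2c, a transcription factor also read in germ and stem cells, with means of 38.1 and 124 CPM without and with TSA in wild type, and 43.8 and 203 in TKO. Hand1, a factor of trophoblast giant cells and mesoderm, went from 0.864 to 20.3 CPM in wild type and from 1.31 to 29.9 CPM in TKO. Esx1, a homeobox gene of the placenta, went from 0.736 to 10.7 CPM and from 1.02 to 18.8 CPM, and Cdx2, a trophectoderm factor, from 2.54 to 23.2 CPM and from 0.496 to 6.06 CPM. The list was not uniform: Eomes went from 7.84 to 5.54 CPM in wild type but from 2.62 to 12.8 in TKO, and Ascl2 from 3.93 to 5.96 CPM and from 7.95 to 8.71 CPM. Plac1 was at 0.122 and 0.706 CPM in wild type and at 0.287 and 0.585 CPM in TKO. Of the markers of later placental cells, Tpbpa had no read in any of the 8 libraries and Prl3d1 had 1 read in all 8 together. Summed pluripotency markers, Pou5f1 among them, were 3054 to 3442 and 3912 to 4229 CPM in the wild type and TKO DMSO libraries, and 1670 to 1857 and 1593 to 1946 CPM with TSA. Of the lists for cells the cultures could hold, summed primitive endoderm markers were lowest in wild type with DMSO (13.8 to 16.4 CPM). They were highest in TKO with TSA (44.8 to 53.5 CPM). Its members differed: in TKO, means of Sox17 and Pdgfra went from 3.41 to 13.6 and from 11.3 to 16.5 CPM with TSA. Those of Gata4, Gata6 and Sox7 went down, from 6.82 to 5.77, 5.26 to 4.01 and 2.11 to 0.974 CPM. Dab2 stood at 8.19 and 8.30 CPM. Fibroblast markers summed to 28.0 to 28.5 CPM without and 50.3 to 57.2 with TSA in wild type cells, against 9.39 to 9.92 and 28.3 to 40.5 in TKO cells. Neural markers summed to 210 to 212 and 120 to 133 CPM in wild type cells, and to 246 to 268 and 103 to 104 in TKO cells. Most of the neural sum was Tubb3, at 161 and 73.7 CPM in wild type and 191 and 58.1 in TKO. Map2, Syt1 and Rbfox3 went the other way, Map2 from 19.8 to 41.0 CPM and from 18.9 to 28.1 CPM. The part of these markers in the Peg10 levels was not tested, and in bulk RNA more cells of a type and more RNA per cell cannot be told apart.

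Sgce encodes epsilon-sarcoglycan, a membrane protein related to the muscle sarcoglycans, and had far fewer reads than its head-to-head partner. Wild type libraries held 9.85 and 10.8 CPM with DMSO and 15.0 and 15.6 with TSA, and TKO libraries 5.41 and 7.79 with DMSO and 14.8 and 17.7 with TSA. The TKO DMSO libraries were the lowest of the 8, and the TSA libraries of the 2 genotypes overlapped. The fitted TSA difference was 0.57 ± 0.19 (1.48-fold) in wild type and 1.30 ± 0.20 (2.47-fold) in TKO, again without a test. In DMSO, Sgce was lower in TKO by -0.65 ± 0.20 on the log2 scale (adjusted p = 0.0453). This call was weak: DESeq2 gave an adjusted p of 0.0655, and the call was lost in 5 of the 8 fits that leave out a library, with adjusted p-values from 0.0356 to 0.287 over the 8. Those 5 left out either wild type DMSO library, either wild type TSA library, or TKO DMSO replicate 1. With TSA the genotypes differed by 0.09 ± 0.18 (95% interval -0.32 to 0.49, adjusted p = 0.782). The interaction was 0.73 ± 0.27 (adjusted p = 0.243).

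The ratio of Peg10 to Sgce within a library does not depend on the scaling between libraries. In counts per kb of exon it was 18.9 and 14.6 in wild type libraries with DMSO and 41.2 and 45.1 with TSA. In TKO libraries it was 28.6 and 20.7 with DMSO and 61.9 and 59.0 with TSA. The 4 groups did not overlap: both DMSO groups lay below both TSA groups, and TKO lay above wild type under each treatment. The TSA part of these ratios contains the Peg10 difference that chose the genes. The ratios are given per library as a description and were not tested.

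**Figure D2:**
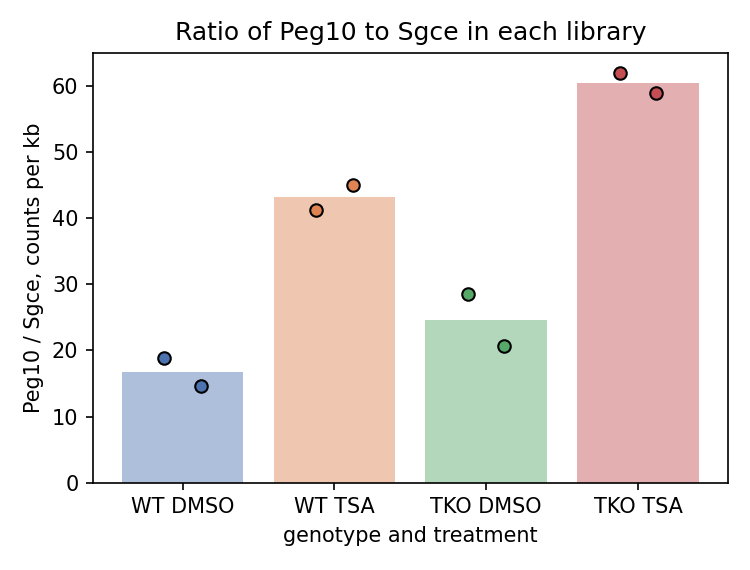
Ratio of Peg10 to Sgce in counts per kb of exon (y axis, linear) by genotype and treatment (x axis). Bars are means of 2 libraries and points are the libraries, of which the lowest, at 14.6, is wild type with DMSO and the highest, at 61.9, is TKO with TSA.

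Casd1, on the far side of Sgce from Peg10, encodes an enzyme that adds O-acetyl groups to sialic acid in the Golgi. Its level in wild type libraries was 32.3 and 29.1 CPM with DMSO and 25.2 and 27.8 with TSA, and in TKO libraries 31.3 and 28.5 with DMSO and 18.5 and 16.7 with TSA. The TKO TSA libraries stood below the other 6. In wild type the TSA difference was -0.21 ± 0.13 and in TKO -0.77 ± 0.13 on the log2 scale, so that Casd1 was lower with TSA where Peg10 and Sgce were higher. The wild type value was near 0, at -0.0084, when only total counts scaled the libraries. In DMSO the genotypes differed by -0.038 ± 0.13 (95% interval -0.32 to 0.24, adjusted p = 0.871). With TSA, Casd1 was lower in TKO by -0.59 ± 0.13 (adjusted p = 0.0105), a call that was lost without wild type TSA replicate 2 (adjusted p = 0.0651) and without TKO TSA replicate 2 (adjusted p = 0.0865). The interaction was -0.55 ± 0.18 (adjusted p = 0.185).

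Ppp1r9a, downstream of Peg10, encodes neurabin, a scaffold that binds actin and protein phosphatase 1. Wild type libraries held 68.2 and 61.7 CPM with DMSO and 59.7 and 49.5 with TSA, and TKO libraries 42.5 and 43.7 with DMSO and 42.2 and 35.8 with TSA. All 4 TKO libraries lay below all 4 wild type libraries, and this was the gene of the domain that was lower in TKO under both treatments. In DMSO the difference was -0.59 ± 0.13 (adjusted p = 0.00728) and with TSA it was -0.49 ± 0.13 (adjusted p = 0.0210). The DMSO call was lost without TKO DMSO replicate 1 (adjusted p = 0.0578) or TKO DMSO replicate 2 (adjusted p = 0.0518). The TSA call was lost without wild type TSA replicate 1 (adjusted p = 0.213) or TKO TSA replicate 2 (adjusted p = 0.165). The TSA differences were small, -0.25 ± 0.12 in wild type and -0.15 ± 0.13 in TKO, and when only total counts scaled the libraries they were -0.048 and 0.0016. The interaction was 0.11 ± 0.18 (adjusted p = 0.854).

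Asb4, the outermost gene, encodes an ankyrin repeat protein that selects substrates for cullin ubiquitin ligases, and was barely read. Wild type libraries held 9 and 10 counts with DMSO and 30 and 32 with TSA, and TKO libraries 10 and 6 with DMSO and 20 and 21 with TSA. The TSA libraries were above the DMSO libraries in both genotypes, with means (± SD, n = 2) of 2.00 ± 0.242 against 0.726 ± 0.119 CPM for wild type, and of 1.34 ± 0.0245 against 0.560 ± 0.175 CPM for TKO. The fitted TSA differences were 1.46 ± 0.38 and 1.23 ± 0.41 on the log2 scale. Genotype was not called in DMSO (-0.35 ± 0.46, 95% interval -1.37 to 0.66, adjusted p = 0.651) or with TSA (-0.58 ± 0.34, 95% interval -1.32 to 0.16, adjusted p = 0.259). The interaction was -0.22 ± 0.58 (adjusted p = 0.910). These intervals are wide at this depth, so a genotype difference of Asb4 was not detectable rather than absent.

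**Figure D3:**
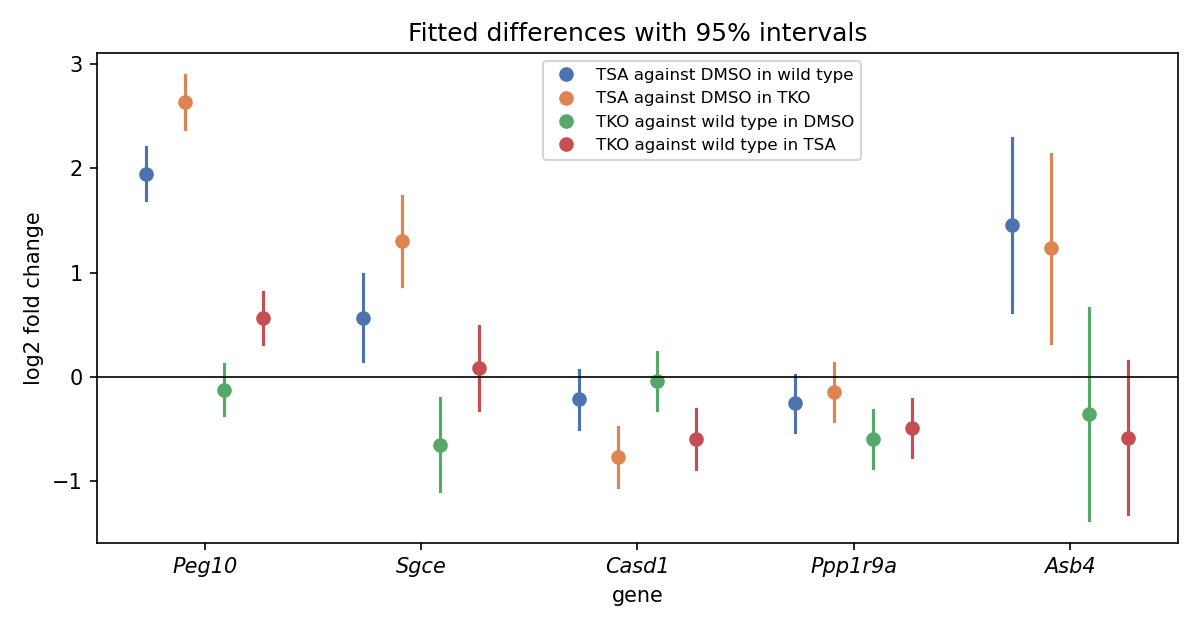
Fitted log2 fold change (y axis) of the 5 domain genes (x axis) in 4 comparisons. Points are estimates from the model over 8 libraries and lines are approximate 95% intervals. The TSA points of Peg10, at 1.95 and 2.63, are the highest of the plot, while its TKO point in DMSO is -0.12.

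Read across the domain, TKO differed from wild type in DMSO for 2 of 5 genes, Sgce and Ppp1r9a, both lower, where 20.4% of all genes were called, 9.63% higher and 10.7% lower. With TSA, 3 of 5 genes differed, Peg10 higher and Casd1 and Ppp1r9a lower, where 18.4% of all genes were called, 10% higher and 8.38% lower. The interaction was called for 0 of 5 genes by edgeR, where 1.35% of all genes were called. At an unadjusted p below 0.05 it held for 3 of 5, Peg10, Sgce and Casd1, and DESeq2 called 1, Peg10. These counts are small, and the comparisons share libraries with each other and with the TSA differences that chose the genes. For TSA itself, all 5 genes had groups without overlap in either genotype, as had 76.9% of all genes in wild type and 81.9% in TKO, and nothing is read from that count. Peg10 and Asb4 were at least 2-fold higher with TSA in wild type, and Peg10, Sgce and Asb4 in TKO. Of all genes, 17.9% and 19.4% were. The rise of Peg10 chose the domain, and Asb4 passed the filter only through TSA libraries, so nothing is read from these counts either.

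The cells with both changes, TKO with TSA, were also set against wild type with DMSO. Peg10 was 2.51 ± 0.12 higher on the log2 scale, or 5.71-fold, Asb4 0.88 and Sgce 0.66 higher, and Casd1 and Ppp1r9a were -0.80 and -0.74 lower. These values contain the TSA difference and were not tested. Each gene's groups did not overlap, as for 80.1% of all genes.

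Levels between genes can be compared only per length. In normalised CPM per kb of exon, Peg10 had 91.5 with DMSO and 352 with TSA in wild type, and 84.2 and 522 in TKO. Casd1 came second in DMSO, at 8.16 in wild type and 7.95 in TKO, followed by Ppp1r9a at 6.80 and 4.51 and by Sgce at 5.50 and 3.52. With TSA, Sgce came second, at 8.16 in wild type and 8.66 in TKO, ahead of Casd1 at 7.05 and 4.68 and Ppp1r9a at 5.72 and 4.08. Asb4 was last throughout, between 0.171 and 0.610 CPM per kb. Neighbours in this order differed by more than the sum of their SDs in all groups, except Casd1 and Ppp1r9a in TKO TSA, which differed by 0.595 against 0.804.

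The profile of each gene over the 8 libraries was compared with those of all tested genes by the root mean square difference of centred log2 CPM, in which 0 is an identical profile. The 5 closest to Peg10 were Dbc1 at 0.0858, Paqr6 at 0.149, Adcy2 at 0.156, Fam5b at 0.160 and Fhdc1 at 0.170, against a median of 1.20 over all genes, and all lie on other chromosomes. Dbc1, for example, had 2.42 CPM with DMSO and 9.23 with TSA in wild type, and 2.32 and 14.3 in TKO. The 5 closest to Sgce were Trmt2b at 0.105, Tpmt at 0.109, Gphn at 0.113, Hspb8 at 0.121 and Mfsd9 at 0.123, against a median of 0.675. Sgce itself was number 1823 of 15821 genes by closeness to Peg10, at 0.739, and Asb4 was number 1400, at 0.674. Casd1 and Ppp1r9a were 0.270 apart. The distances are descriptions over 8 libraries that share their group structure.

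Within 3 Mb of Peg10 the table lists 27 other genes, of which 4 had no read in any library and 17 could be tested. With TSA, 5 rose and 1 fell in wild type, where 27% and 25.9% of all genes did, and 10 rose and 1 fell in TKO, where 30.8% and 27.9% did. When only total counts scaled the libraries, 9 rose and 1 fell in wild type. Of the 17, 3 reached the filter level only through TSA libraries (fewer than 2 DMSO libraries at 0.682 CPM), and without them 4 of 14 rose in wild type and 7 of 14 in TKO. Dync1i1, a subunit of the dynein motor, rose from 0.702 to 4.38 CPM in wild type and from 0.606 to 8.02 CPM in TKO (log2 fold changes 2.60 and 3.72, adjusted p = 0.00026 and 1.46e-05). Tfpi2, a protease inhibitor that is itself imprinted in placenta, was 1 of those 3, so its levels of 0.290 and 3.00 CPM in wild type and 0.357 and 3.38 CPM in TKO, without and with TSA, are given as a description. Pdk4, a kinase that brakes pyruvate use, rose by 0.92 and 0.94 (adjusted p = 0.00236 and 0.00150). Calcr, the calcitonin receptor, rose in TKO by 1.79 (adjusted p = 0.00312). Slc25a13, a mitochondrial aspartate-glutamate carrier, was the gene that fell, by 0.78 in wild type and by 1.08 in TKO (adjusted p = 0.000703 and 5.58e-05). Pon3 also rose in both genotypes (0.97 and 1.09), and Acn9 and Asns rose in TKO (0.58 and 0.36), all 3 with adjusted p-values between 0.0158 and 0.0424. Leaving out a library ended each of these calls: the adjusted p of Pon3 reached 0.136 in wild type (without its DMSO replicate 1, and above 0.05 without either TSA replicate) and 0.154 in TKO (without its DMSO replicate 1, and above 0.05 without its TSA replicate 1). That of Acn9 reached 0.106 (without TKO TSA replicate 2, and above 0.05 without TKO DMSO replicate 1). That of Asns reached 0.360 (without TKO DMSO replicate 1, and above 0.05 without wild type TSA replicate 1 or either TKO TSA replicate).

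TKO differed from wild type for 4 of the 17 neighbours in DMSO, 1 higher and 3 lower, and for 4 with TSA, 1 higher and 3 lower, against 20.4% and 18.4% of all genes. The interaction was called for 0 of 17 by edgeR, for 1 at an unadjusted p below 0.05, and for 1 by DESeq2. Of all genes, 1.35% were called for it by edgeR, so nothing is read from that 0. Col1a2, a chain of type I collagen, stood at 14.7 CPM with DMSO and 35.4 with TSA in wild type, and at 1.35 and 11.4 in TKO. It was lower in TKO by -3.44 in DMSO and by -1.63 with TSA (adjusted p = 0.000156 and 0.00238), and it rose with TSA by 1.27 and 3.08 (adjusted p = 0.00235 and 5.28e-05). The summed fibroblast markers given above, which do not include Col1a2, were likewise lowest in TKO with DMSO and highest in wild type with TSA. The sums of the other groups overlapped, with 28.0 to 28.5 CPM for wild type DMSO and 28.3 to 40.5 CPM for TKO TSA. Members differed: with DMSO, Col1a1 had a mean of 12.4 CPM for wild type and 0.670 for TKO. Means of Col1a1, Thy1, Pdgfrb, Postn and Lum were higher with TSA for both genotypes. Those of Col3a1 (4.23 to 2.05 CPM), Twist2 and Dcn were lower for wild type. For TKO, Dcn was lower, and Col3a1 and Twist2 were higher. The part of these markers in the Col1a2 levels was not tested. Pon2, a lactonase, was lower in TKO by -0.89 and -1.16 (adjusted p = 0.0173 and 0.00542) and Samd9l, an interferon-induced gene, by -0.99 and -1.44 (adjusted p = 0.0324 and 0.00842). In DMSO, Ccdc132 was higher in TKO by 0.47 (adjusted p = 0.0175), and with TSA Dync1i1 was higher by 0.87 (adjusted p = 0.0484). Several of these genotype calls were lost without a library. In DMSO the adjusted p of Pon2 reached 0.112 (lost without either TKO replicate or wild type replicate 1), that of Samd9l 0.229 (without TKO replicate 2 or either wild type replicate) and that of Ccdc132 0.182 (without TKO replicate 1 or wild type replicate 2). With TSA that of Samd9l reached 0.0756 (without wild type replicate 1 or TKO replicate 2), and that of Dync1i1 reached 0.214 and was above 0.05 in 6 of 8 such fits, which kept it only without either wild type DMSO library.

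**Figure D4:**
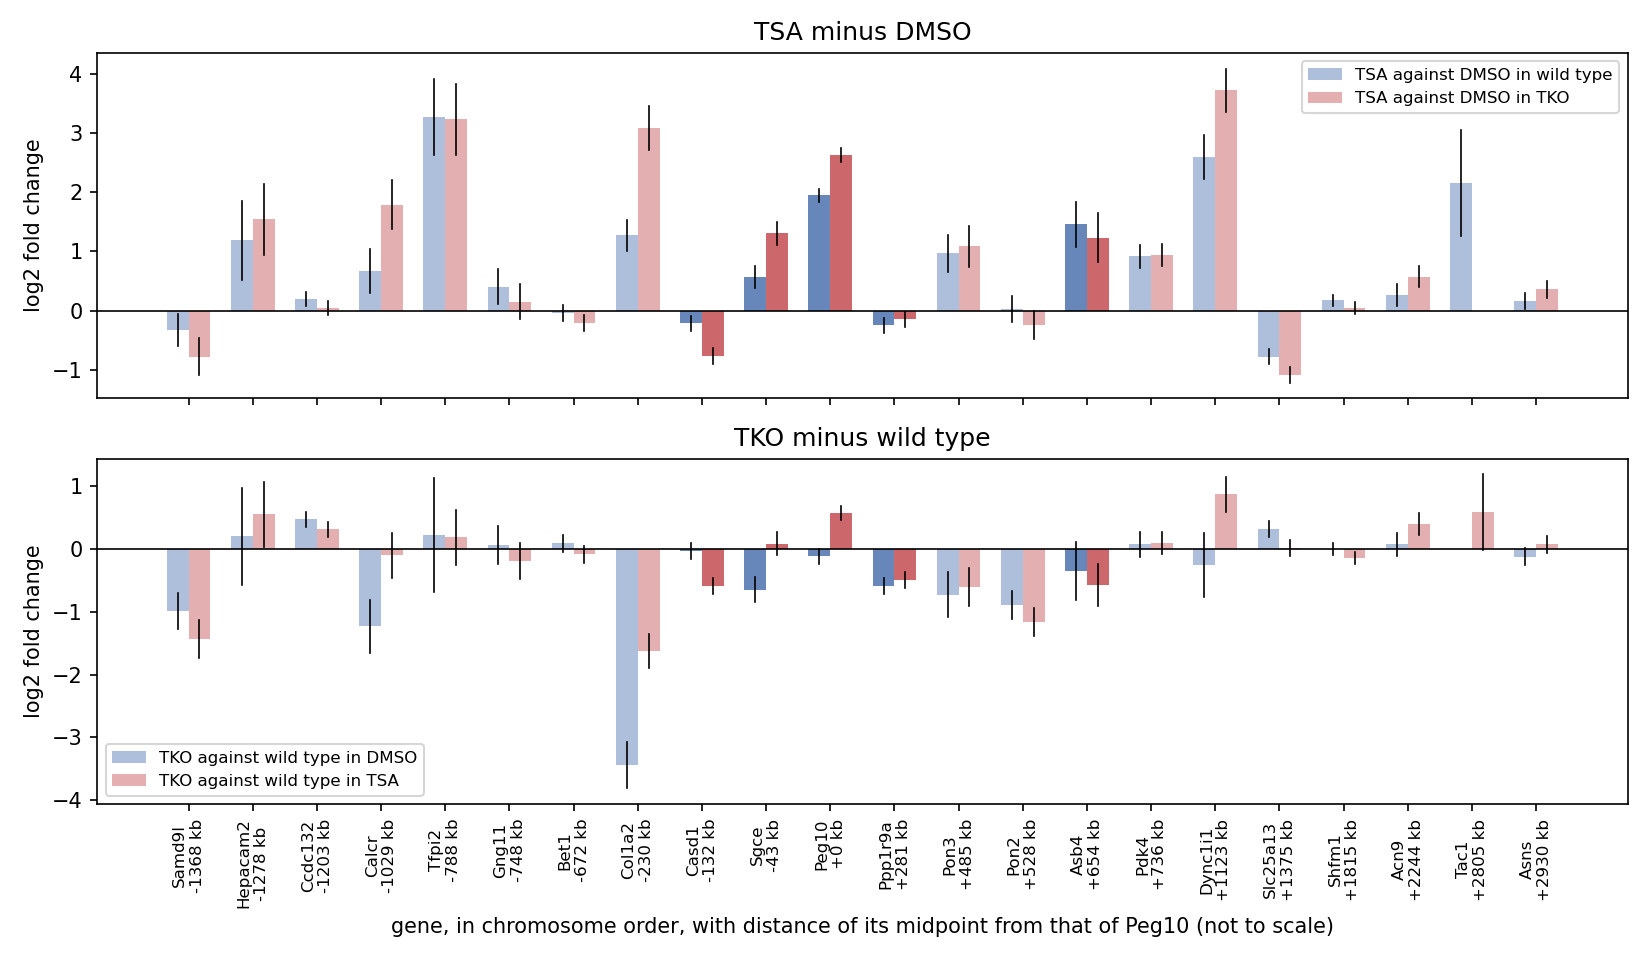
Fitted log2 fold change (y axis) of the domain genes (dark bars) and the 17 tested neighbours (light bars) in chromosome order (x axis, not to scale), for TSA against DMSO above and TKO against wild type below. Black lines are ± 1 SE, and 2 bars of Tac1 are left out because TKO DMSO had no read of it. Dync1i1 at 3.72 and Peg10 at 2.63 rise above Casd1 at -0.77 and Ppp1r9a at -0.15 in TKO.

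Other genes that descend from the same family of retrotransposons as Peg10 were next. Of 10, 6 could be tested, and with TSA 6 rose in wild type and 5 in TKO with 0 lower, where 27% and 30.8% of all genes rose. The counts stayed the same with each of 3 other scalings, while DESeq2 called 5 in wild type and 4 in TKO. The rise of Ldoc1l was weak (0.49 and 0.57, adjusted p = 0.0495 and 0.0418 by edgeR). DESeq2 called it in neither genotype, and in wild type it was also lost with only the groups compared in the fit. Without each library in turn it ran from 0.28 to 0.74 in wild type and from 0.44 to 0.69 in TKO. The call of Ldoc1l was lost in 7 of these 8 fits in wild type and in 5 in TKO, and the counts of this family include it. The median of the 6 was 2.28 in wild type and 1.72 in TKO against 0.01 and 0.04 over all genes. Of the 6, 2 (Rgag4 and Cxx1c) reached the filter level only through TSA libraries, and without them 4 of 4 rose in wild type and 3 of 4 in TKO. The medians given include these 2 genes, whose rise the filter favoured, and were not redone without them. Neither the counts nor the medians can be read as describing the whole family. Ldoc1 went from 1.54 to 8.92 CPM in wild type and from 3.90 to 18.1 CPM in TKO (2.54 and 2.21, adjusted p = 4.23e-05 and 1.63e-05), and was also higher in TKO in DMSO (1.35, adjusted p = 0.00759) and with TSA (1.02, adjusted p = 0.00603). The genotype call of Ldoc1 in DMSO was lost without replicate 1 of wild type (adjusted p = 0.0774) or of TKO, and that with TSA without wild type replicate 1 (adjusted p = 0.0670) or TKO replicate 2. The levels of Rgag4 without and with TSA, a description for the reason given, were 0.259 and 2.10 CPM in wild type and 0.239 and 2.16 CPM in TKO. Ldoc1l was lower in TKO by -1.23 in DMSO and by -1.16 with TSA (adjusted p = 0.00237 and 0.00283). Cxx1a, Cxx1b and Cxx1c are near-identical copies whose reads the counting could split, so their values are uncertain. Between genotypes, 1 member was higher and 2 were lower in DMSO, and 1 was higher and 3 were lower with TSA. Cxx1c, among those lower under both treatments, reached the filter level in 2 wild type and 0 TKO libraries. The filter favoured that direction for Cxx1c, and these counts include it. Of all genes, 9.63% were higher and 10.7% lower in DMSO, and 10% and 8.38% with TSA.

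Ube3a, the ubiquitin ligase known to act on PEG10 protein, fell with TSA by 0.39 in wild type and by 0.50 in TKO (adjusted p = 0.0312 and 0.00853), from 384 to 293 CPM and from 431 to 305 CPM. The wild type call was lost with total counts or the upper quartile as the scaling, without DMSO replicate 2 (adjusted p = 0.207) and without TSA replicate 1. The TKO call was lost without DMSO replicate 1 (adjusted p = 0.0899) and without TSA replicate 2. Ubqln2, the shuttle factor of the same turnover, was lower in TKO in DMSO by -0.57 (adjusted p = 0.0399), a call lost without any 1 of the 4 DMSO libraries (adjusted p up to 0.256).

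For the partners of the other domain genes, 4 short lists were counted, against 27% of all genes rising and 25.9% falling with TSA in wild type, and 30.8% and 27.9% in TKO. Of the sarcoglycan and dystroglycan complex, 5 of 9 genes could be tested, and with TSA 1 rose and 1 fell in wild type, and 2 rose and 2 fell in TKO. With total counts as the scaling, 2 rose and 1 fell in wild type. Sgcb, beta-sarcoglycan, rose by 1.61 and 1.53 (adjusted p = 0.000121 and 1e-04) and Dmd, dystrophin, fell by 0.82 and 0.63 (adjusted p = 0.000105 and 0.000318). Among 4 neurabin partners 1 rose and 2 fell with TSA in each genotype, and with total counts as the scaling 2 rose and 1 fell in wild type. Ppp1r9b, the paralogue of Ppp1r9a known as spinophilin, rose by 1.30 and 1.23 with TSA (adjusted p = 2.6e-05 and 1.35e-05). It was also higher in TKO by 0.67 in DMSO and by 0.60 with TSA (adjusted p = 0.0033 and 0.00572), where Ppp1r9a was lower, and the TSA call was lost without wild type replicate 1 (adjusted p = 0.0678) or TKO replicate 2. Of the Asb ligase genes, 14 of 21 could be tested, and with TSA 3 rose and 2 fell in wild type, and 7 rose and 3 fell in TKO. With total counts as the scaling, 4 rose and 0 fell in wild type, and 7 rose and 1 fell in TKO. DESeq2 called 4 of the 14 in TKO where edgeR called 10. The TKO calls of Asb6, Asb7, Asb16, Rnf7 and Tceb1, with edgeR's adjusted p-values from 0.0334 to 0.0477, were each lost in 6 to 8 of 15 alternatives, DESeq2 among them, and that of Asb2 in 3. Of the 14, Asb2 and Asb12 reached the filter level only through TSA libraries, and without them 2 of 12 rose in wild type and 5 of 12 in TKO. Asb8 rose by 1.33 and 1.25 (adjusted p = 8.79e-05 and 9.23e-05). Among 6 genes of sialic acid handling, 3 rose and 0 fell with TSA in wild type, and 1 rose and 0 fell in TKO. With total counts as the scaling, 4 rose in wild type and 3 in TKO. The gene that rose in both was Siae, an esterase that removes the O-acetyl groups that the Casd1 enzyme adds (0.65 and 0.78, adjusted p = 0.00163 and 0.00038).

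Imprinted genes elsewhere were counted in the same comparisons. Of 22 tested genes known for paternal expression, 9 rose and 2 fell with TSA in wild type and 9 rose and 6 fell in TKO, with medians of 0.04 and 0.03 on the log2 scale against 0.01 and 0.04 over all genes. Of all genes, 27% rose and 25.9% fell in wild type, and 30.8% and 27.9% in TKO. With total counts as the scaling, 9 rose and 3 fell in TKO. Of the 22, 2 reached the filter level only through TSA libraries, and without them 8 of 20 rose in each genotype. Plagl1, a zinc finger gene, rose by 1.44 and 2.11 (adjusted p = 0.000791 and 2.91e-05) and Igf2, a growth factor, rose by 1.35 and 1.87 (adjusted p = 0.000523 and 0.000126). In DMSO, 9 of the 22 were higher and 3 lower in TKO than in wild type, with a median of 0.41 against -0.0054 over all genes, while Peg10 differed by -0.12 and Sgce by -0.65. Of all genes, 9.63% were higher and 10.7% lower. The higher calls of Peg3, Mest, Plagl1, Nap1l5, Zrsr1 and Mcts2 were each lost in 1 to 3 of the 8 fits that leave out a library. Those of Dlk1, Peg13 and Kcnq1ot1 and the 3 lower calls were kept. With TSA, 7 were higher and 1 was lower in TKO, with a median of 0.27 against 0.0044, where 10% and 8.38% of all genes were higher and lower. Of these, Nap1l5 was lost in 3 such fits and Zrsr1 in 2.

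Of 14 tested genes known for maternal expression, 5 rose and 6 fell with TSA in wild type, where 27% and 25.9% of all genes did, and 5 rose and 4 fell in TKO, where 30.8% and 27.9% did. Of the 14, 1 reached the filter level only through TSA libraries, and without it 4 of 13 rose in each genotype. H19 rose by 2.55 and 3.29 (adjusted p = 0.000417 and 5.15e-05) and Meg3 fell by 1.21 and 1.67 (adjusted p = 0.000187 and 1.6e-05). In TKO against wild type, 5 were higher and 4 were lower in DMSO, where 9.63% and 10.7% of all genes were. The calls of Meg3, Rian, Ascl2, Igf2r, Gnas and Phlda2 were each lost in 1 to 4 of the 8 fits that leave out a library. Those of H19, Cdkn1c and Grb10 were kept. With TSA 1 of the 14 was higher in TKO and 0 were lower, where 10% and 8.38% of all genes were. In that comparison 2 of 14 passed an unadjusted p below 0.05 and DESeq2 called 1. Among 5 genes that protect imprints, Zfp57, a zinc finger protein that binds imprinting control regions, fell with TSA by 1.05 in wild type and by 1.52 in TKO (adjusted p = 0.00026 and 1.74e-05). Its partner Trim28 fell by 0.75 and 0.80 (adjusted p = 5.87e-05 and 2.12e-05). Dppa3, a maternal factor, rose from 24.9 to 70.3 CPM and from 30.4 to 125 CPM (adjusted p = 0.000482 and 3.88e-05). Between genotypes in DMSO, 0 of these 5 were called by edgeR or by DESeq2, and 1 passed an unadjusted p below 0.05. Of all genes, 20.4% were called by edgeR. With total counts or the upper quartile as the scaling, 1 of the 5 was called higher in TKO. With TSA, 1 was called, Dppa3, higher in TKO, where 18.4% of all genes were called. That call was lost in 2 of the 8 fits that leave out a library.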

How the data were processed

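RNA was measured in 8 libraries of ribosome-depleted total RNA made with a directional kit and sequenced as paired ends, per the labels' protocols. The authors deposited whole-number read counts per gene, with exon positions and the summed exon length in bases. The submitters' processing notes name TopHat2 2.0.13, featureCounts 1.4.5-p1, edgeR 3.22.3 and mm10, without their role. The strand setting, the annotation and the handling of reads with several matches are not given in the sources used here.

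Groups came from the labels. Counts were scaled by TMM, filtered with filterByExpr and tested two-sided with the quasi-likelihood test of edgeR 4.0.16 in R 4.3.3, in 1 model over all libraries with 4 group means, which leaves 4 residual degrees of freedom. The SE was derived from the F statistic and is approximate. The code was tested on simulated data. Replicates differed by more than sampling noise (chi-square per degree of freedom 5.38 to 12.4), so each library counts once, and p-values measure only the spread between these libraries.

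The 5 genes, the lists and the tests were chosen with earlier results of these data known. All 5 genes are named. Of the genes within 3 Mb of Peg10, at most 12 that average 1 CPM or more and have a call are named, the most abundant first. Of each list, at most 4 called genes are named, those with the largest differences. Others are named where a call was checked against the alternatives or the interaction was called. Other scalings, DESeq2 1.42.0, no filter, a replicate block, fits of only the groups compared and fits without each library were the alternatives.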

Additional observations from a re-analysis of the deposited data

Results flagged for a closer look

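None of the 5 domain genes was singled out. Among the other genes named or listed, 5 had a TSA difference that differed between the genotypes by the interaction test of edgeR (TSA difference in TKO minus that in wild type, on the log2 scale). They were 2 of 22 tested paternally expressed genes, 2 of 14 maternally expressed ones and 1 of the 3 targeted genes. The other lists and the neighbours had no such call. Of all genes, 1.35% were called by this test. Mest, a paternally expressed hydrolase gene, had an interaction of 0.94 (adjusted p = 0.0260), with TSA differences of 0.34 in wild type and of 1.28 in TKO. Nnat, also paternally expressed, had 1.77 (adjusted p = 0.0394), and its call was lost in 6 of 8 fits that leave out a library (adjusted p up to 0.190, without TKO DMSO replicate 2), all but those without wild type DMSO replicate 2 or wild type TSA replicate 1. The maternally expressed Cdkn1c had 1.55 (adjusted p = 0.0348). Nnat rose with TSA by 0.82 in wild type and by 2.58 in TKO, and Cdkn1c by 1.98 in TKO, with no call in wild type. Grb10 had 1.70 (adjusted p = 0.00135), a call that no fit without a library lost. Grb10 did not rise: it fell with TSA by 1.82 in wild type, and its TSA difference in TKO was not called. In DMSO it was already lower in TKO (-1.88 to -1.75 over the fits without a library). Dnmt3b, one of the targeted genes, had 1.33 (adjusted p = 0.00521). It fell with TSA by 0.72 in wild type and rose in TKO (0.45 to 0.76 over such fits). The calls of Mest and Cdkn1c were each lost in 4 such fits (adjusted p up to 0.145 and 0.167, both without TKO DMSO replicate 2): without wild type TSA replicate 1, TKO TSA replicate 2, TKO DMSO replicate 2 and, for Mest, wild type DMSO replicate 1 or, for Cdkn1c, TKO DMSO replicate 1. That of Dnmt3b was lost in 1, without TKO DMSO replicate 2 (adjusted p = 0.0505). Groups of 2 are too small for a search for libraries that stand apart.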

How the results depend on the processing

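Over 369 values of the domain genes under other settings, 331 kept their direction and their side of the threshold or moved by less than the spread between libraries, 16 lost a call, 5 gained one, 10 moved and 7 reversed. When only total counts scaled the libraries, the TSA differences were 2.15 (Peg10), 0.77 (Sgce), -0.0084 (Casd1) and -0.048 (Ppp1r9a) in wild type, and 2.78 (Peg10), -0.62 (Casd1) and 0.0016 (Ppp1r9a) in TKO. With upper quartile scaling, Sgce was 0.72 and Casd1 -0.062 in wild type. Relative to the median gene the values for Peg10 under TMM and total counts were 1.93 and 1.94 in wild type and 2.59 and 2.59 in TKO. The DMSO call of Sgce was lost with total counts (-0.62, adjusted p = 0.0578), upper quartile (-0.61, 0.0606), only the groups compared (-0.64, 0.0773) and DESeq2 (-0.65, 0.0655).

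The interaction of Peg10 was called without the filter (0.66, adjusted p = 0.0137), with the replicate block (0.69, adjusted p = 0.0242), by DESeq2 (0.68, adjusted p = 0.00484), without wild type DMSO replicate 2 (0.80, adjusted p = 0.0246) and without TKO TSA replicate 1 (0.78, adjusted p = 0.0491). All genes called for the interaction numbered 213, and 488 without the filter, 633 with the replicate block and 394 by DESeq2. The replicate numbers give 2 pairs at most, and deviations of same-numbered libraries correlated at 0.073 to 0.291, with no label that says what a shared number marks, so the block is given as an alternative. The cause of these changes was not tested.

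Leaving out each library in turn, the DMSO differences of TKO from wild type ran from -0.93 to -0.40 (Sgce), from -0.66 to -0.54 (Ppp1r9a) and from -0.11 to 0.031 (Casd1, 0.022 without wild type DMSO replicate 1 and 0.031 without TKO DMSO replicate 2). Those with TSA ran from 0.47 to 0.67 (Peg10), -0.66 to -0.52 (Casd1), -0.62 to -0.35 (Ppp1r9a) and -0.050 to 0.21 (Sgce, reversed without TKO TSA replicate 2). Interactions ran from 0.57 to 0.80 (Peg10), -0.024 to 0.25 (Ppp1r9a, -0.024 without wild type TSA replicate 2 and -0.017 without TKO TSA replicate 1) and -0.50 to 0.14 (Asb4, reversed without TKO DMSO replicate 1), and TSA differences in TKO from -0.27 to -0.033 (Ppp1r9a) and from 0.95 to 1.59 (Asb4). Genes called ran from 1458 to 3330 for genotype in DMSO, 941 to 3443 with TSA and 10 to 410 for the interaction. Within 1 Mb of Peg10, 4 of 7 tested neighbours were called for TSA in each genotype, where 52.8% of all genes were in wild type and 58.7% in TKO. Tfpi2, which reached the filter level only through TSA libraries, is among the 4. For genotype, 2 of the 7 were called in each treatment, where 20.4% of all genes were in DMSO and 18.4% with TSA. With 6 to 32 counts per library, Asb4 is limited by depth.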
